A study of Mus musculus with 20 samples.

Results

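The genes described here are 10 mRNAs encoded by the mitochondrial genome, mt-Nd1, mt-Nd2, mt-Nd4, mt-Nd5, mt-Nd6, mt-Cytb, mt-Co1, mt-Co2, mt-Co3 and mt-Atp6, out of 35580 genes measured by RNA-seq. They were chosen by name, with no threshold, after earlier results of the same data had shown them to be among the genes of highest level and highest variance over the 20 samples, so their abundance and variance are given as description only. The libraries came from hippocampus and neocortex of male mice aged 13.5 months, with 5 samples of each of 4 groups: WT hippocampus, miR-324-null hippocampus, WT neocortex and miR-324-null neocortex. The null mice carried a global CRISPR/Cas9 deletion of Mir324, a microRNA gene, in every cell type. The strain label was C57BL/6J for all groups. The founders had been of mixed C57BL/6 and CBA/ca background and were backcrossed. Crosses between heterozygotes then gave a WT and a null line, and the sources used here do not say whether the sampled mice were littermates. A difference between genotypes therefore cannot be told apart from a difference between lines. All libraries were made from polyadenylated RNA of whole tissue, so fewer mitochondria-rich cells and less mitochondrial RNA per cell cannot be told apart.

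The mitochondrial genome is a small circular chromosome that is transcribed as long precursors from both strands. Transfer RNAs that lie between the coding regions are cut out, which releases the mRNAs, and most of these receive a short poly(A) tail inside the organelle. The 13 proteins encoded there are all subunits of the oxidative phosphorylation complexes, whose other subunits are encoded in the nucleus. Neurons depend heavily on this machinery to drive the ion pumps behind electrical signalling. Among the listed genes, mt-Nd1, mt-Nd2, mt-Nd4, mt-Nd5 and mt-Nd6 encode subunits of complex I (NADH dehydrogenase), mt-Cytb encodes cytochrome b of complex III, mt-Co1, mt-Co2 and mt-Co3 form the core of complex IV (cytochrome c oxidase) and mt-Atp6 is a membrane subunit of ATP synthase. The remaining 3 protein-coding genes, mt-Nd3, mt-Nd4l and mt-Atp8, were measured as well and are given where they differ.

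In the GRCm38 annotation (GENCODE M21), 9 of the 10 genes lie on the plus strand of chromosome M and 1, mt-Nd6, on the minus strand. The order along the plus strand runs from mt-Nd1 (chrM:2751-3707) and mt-Nd2 (chrM:3914-4951) over mt-Co1 (chrM:5328-6872), mt-Co2 (chrM:7013-7696), mt-Atp6 (chrM:7927-8607), mt-Co3 (chrM:8607-9390) and mt-Nd4 (chrM:10167-11544) to mt-Nd5 (chrM:11742-13565) and mt-Cytb (chrM:14145-15288). mt-Nd6 (chrM:13552-14070) lies between the last pair on the other strand. Each is annotated as a single exon, and the transcripts as annotated carry no UTR. Their ends differ in the stop codon. In 7 of the 10 the annotated transcript closes with a whole stop codon, while in 3 it stops at a single T, to which the poly(A) tail adds the rest of a TAA. The last 18 bases of those 3 and, for contrast, of mt-Nd5 are shown from 5′ to 3′ with the stop codon, or the part of it that is encoded, in capitals.
mt-Co3: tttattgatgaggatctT
mt-Nd4: ttacaggcctgacaataT
mt-Cytb: tactaaaattatatccaT
mt-Nd5: tcaattaatctcgagTAA

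The genes are packed so tightly that neighbours share bases. mt-Nd5 and mt-Nd6 point towards each other and overlap by 14 bases at their 3′ ends. On the plus strand, mt-Nd4l and mt-Nd4 overlap by 7 bases, mt-Atp8 and mt-Atp6 by 43 and mt-Atp6 and mt-Co3 by 1. Each gene was counted as its own annotated transcript, so the values do not show whether overlapping neighbours share an RNA. The last 24 bases of the facing pair are shown because both genes had lower values in null samples; capitals mark the overlap, in which each sequence is the reverse complement of the other.
mt-Nd5: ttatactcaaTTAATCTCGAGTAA
mt-Nd6: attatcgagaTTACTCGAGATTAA
The library kit keeps the strand, but whether the counting used it was not given in the sources used here. Without strand, reads from mt-Nd6 and antisense precursor RNA across the same bases cannot be told apart. No 31-base word is shared between mt-Nd5 and mt-Nd6.

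Nuclear copies of mitochondrial genes were also present among the measured transcripts. A search of all other transcripts against 37 mitochondrial transcripts at 95% identity or more over at least 100 bases found 11 of them, 7 on chromosome 1, 3 on chromosome 2 and 1 on chromosome 13, all pseudogenes. Of these, 5 were identical to the mitochondrial gene over the whole match. The words of 31 bases on which a pseudo-alignment by default rests were shared with a copy for 100% of mt-Co2, 99.9% of mt-Co3, 99.5% of mt-Atp6, 63.6% of mt-Co1, 62.8% of mt-Nd4, 13.5% of mt-Nd2 and 12.8% of mt-Nd5. They were shared for none of mt-Nd1, mt-Nd6 and mt-Cytb. The values of the first 5 therefore depend on how the authors' software divided reads between the gene and its copies.

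The copy with the most counts by far was Gm29216 (chr1:24615706-24616197, minus strand), which matches the last 483 bases of mt-Co1 at 99.8% identity. The first 30 bases of Gm29216 are shown with the bases of mt-Co1 that lie over them (chrM:6381-6410), and capitals mark where they differ.
mt-Co1: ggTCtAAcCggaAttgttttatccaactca
Gm29216: ggATtGGcAggaTttgttttatccaactca
Counted from 1 at the 5′ end of mt-Co1, the single difference inside the matched stretch is A1066T, and everything downstream of it is identical. Of the 462 words of 31 bases in Gm29216, 449 were shared with mt-Co1. Gm29216 had 68269 to 114837 estimated counts in every sample, between 19.6% and 26.2% of the counts of mt-Co1. In TPM, which corrects for transcript length, it had rank 3 of all genes, with a median of 33840 TPM against 32680 TPM for mt-Co1. All 6 bases that differ lie among the first 13 of Gm29216, and a read from the rest of it carries none of them, so most of these counts cannot be assigned to a nuclear transcript or to mt-Co1.

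The other 10 copies together held between 139.3 and 528.6 counts in 19 of the 20 samples. In the remaining library, null hippocampus replicate 3, they reached 6651.7 counts. Gm28661, a copy of mt-Co2, stood at 291 CPM (counts scaled to a common library size with edgeR's TMM factors) there against 2.30 to 6.32 in the other null hippocampus samples. Gm10925, a copy of mt-Atp6, stood at 108 against 0.522 to 1.35. Both lie next to Gm29216 on chromosome 1. Their counts were small beside those of mt-Co2 and mt-Atp6, and adding the counts of all copies to the mitochondrial genes changed no call among the 10.

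Gm13394, which had been listed as a further copy, had no match to any mitochondrial transcript and was not treated as one. Its level fell on 3 steps. WT samples 1, 2 and 4 lay between 1028 and 1128 CPM in both tissues, WT samples 3 and 5 between 540 and 581, null samples 1, 2 and 3 between 518 and 618.5, and null samples 4 and 5 at 1.26 or less. The same numbers stood on the same step in hippocampus and neocortex, and the groups overlapped between genotypes.

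**Figure D1:**
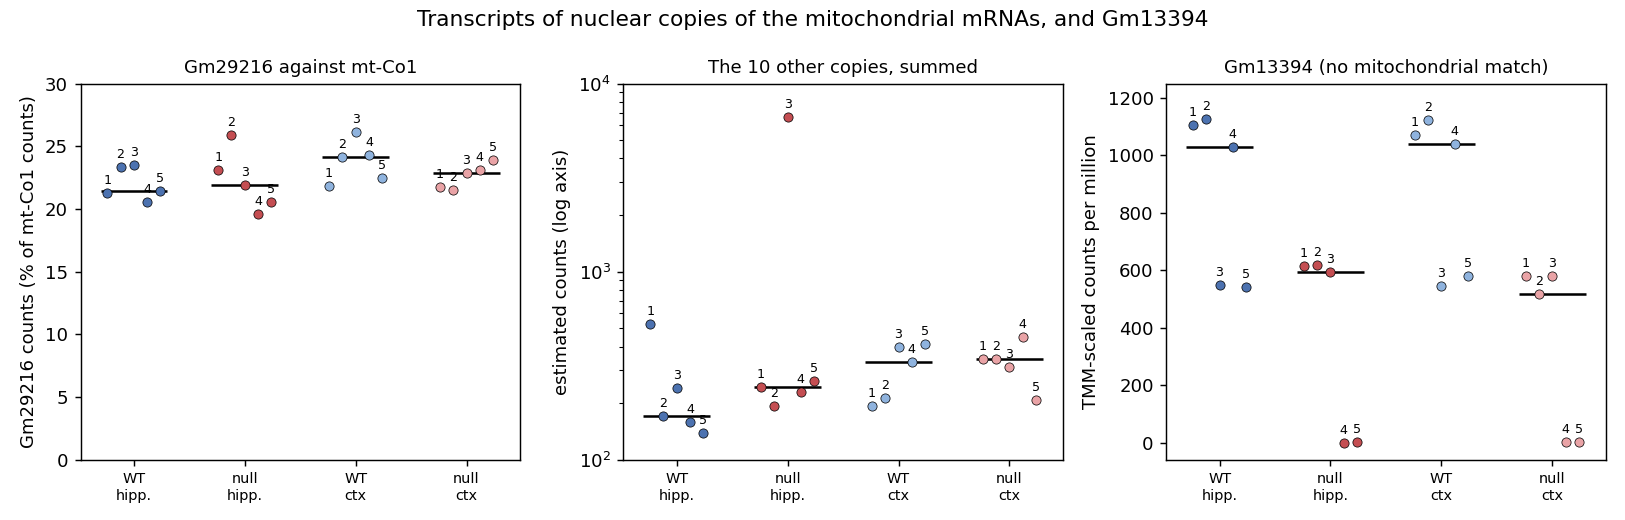
The 3 panels give one point per sample, numbered by replicate, with a black line at the group median. Left, Gm29216 counts as a percentage of mt-Co1 counts, between 19.6% and 26.2%. Middle, the summed estimated counts of the 10 other copies on a log axis, where null hippocampus replicate 3 stands alone at 6651.7. Right, Gm13394 in CPM, on 3 steps.

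The depth of the 20 libraries lay between 12752439 and 19617765 estimated counts. No pair of files was identical. Of 7 hippocampal marker genes, 7 were DE (differentially expressed, adjusted p of 0.05 or less by edgeR with Benjamini-Hochberg adjustment) and higher in the hippocampus among WT and 6 among null samples. Of 6 neocortical markers, 5 were lower in the hippocampus in each genotype. Over all genes 18.1% were higher and 18.0% lower in WT hippocampus, and 13.8% and 13.6% in null hippocampus. The deletion was not checked from the values, since mRNA libraries do not measure mature microRNAs. Choroid plexus markers (6 of 6 present, including Ttr) varied most between samples, with summed levels of 38.6 to 4497 CPM in WT hippocampus, 44.8 to 3860 in null hippocampus, 13.8 to 50.9 in WT neocortex and 20.7 to 797 in null neocortex. Between genotypes, none of 61 tested markers of 11 cell type lists was DE in the hippocampus by edgeR and none of 60 in the neocortex, beside 0.115% and 0.315% of all genes. At an unadjusted p of 0.05 or less by edgeR, 8 passed in the hippocampus, beside 11.1% of all genes. In the neocortex 21 passed, beside 12.2% of all genes, so markers passed there more often than genes in general. DESeq2 called none in the hippocampus and 3 in the neocortex (Cux2, Fibcd1 and Prox1), beside 0.933% and 1.61% of all genes. In the neocortex, summed striatal projection neuron markers lay between 121 and 331 CPM in WT and between 206 and 509 in null samples, and summed neocortical markers between 578 and 627 in WT and between 444 and 650 in null samples. No marker of any of the 11 lists was below 0.1 CPM in all samples. The part of cell composition in the values below was not tested.

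Ranked by median TPM over all samples, the 10 mRNAs all stood among the 13 genes with the highest levels, where the other places went to mt-Nd4l, mt-Nd3 and Gm29216. mt-Atp6 ranked first with a median of 36740 TPM (34170 to 42870), and mt-Co2 followed with 35250 TPM. mt-Atp6 was above mt-Co2 in 20 of 20 samples. These ranks hold for the counts as the authors' software divided them between genes and copies. With the counts of Gm29216 given to mt-Co1, the median of mt-Co1 was 41200 TPM in place of 32680, above mt-Atp6 in 16 of 20 samples. As deposited, mt-Co1 reached 32680 TPM and mt-Co3 26910 TPM, so mt-Atp6 and the complex IV mRNAs stood at the head. Next came mt-Cytb with 18130 TPM and mt-Nd1 with 18120 TPM, which could not be ordered, mt-Cytb being higher in 11 of 20 samples. Among the remaining complex I mRNAs, mt-Nd4 had 15250 TPM and mt-Nd2 12120 TPM. mt-Nd6, the single mRNA from the minus strand, had 6448 TPM, with 3920 to 8147 over the samples. The libraries were made from polyadenylated RNA and tails were not measured. The level of an mRNA therefore cannot be told apart from how well it was captured. mt-Nd5, the longest of the 10 at 1824 bases, had the lowest level with 4988 TPM (3396 to 6355). The level of mt-Nd6 could not be separated from that of mt-Nd3, at 6389 TPM.

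The 10 mRNAs together accounted for 63.3% of the summed variance of CPM over the samples, summed over all genes kept by a filter on low counts. mt-Co1 alone held 30.9% of it and ranked first, with mt-Co3 second at 6.27% and mt-Nd4 next at 5.64%, whereas mt-Nd6 held 0.206%. A variance on this linear scale grows with the level of a gene, and it was one of the values that led to these genes being listed.

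As a share of the library, the 10 mRNAs took between 8.75% and 12.04% of all estimated counts in each sample, and the groups overlapped throughout. In WT hippocampus, samples 1 to 5 held 12.04%, 10.1%, 9.87%, 9.83% and 10.9%. In null hippocampus they held 11.2%, 10.1%, 9.65%, 9.56% and 10.2%. The first sample was the highest in both groups, and the other hippocampal libraries lay between 9.56% and 10.9%. In WT neocortex the shares were 9.11%, 11.4%, 9.44%, 10.3% and 11.6%. In null neocortex they were 11.3%, 9.84%, 8.90%, 8.94% and 8.75%, so that 3 of the 5 null samples lay below every WT sample and the first lay among the highest. The means were 10.6% ± 0.939 (SD, n = 5) in WT and 10.2% ± 0.661 in null hippocampus, and 10.4% ± 1.13 in WT and 9.55% ± 1.08 in null neocortex. Each difference between means was smaller than the larger SD of its pair. In units of TPM the same 10 genes made up 18.6% to 23.6% of each library.

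**Figure D2:**
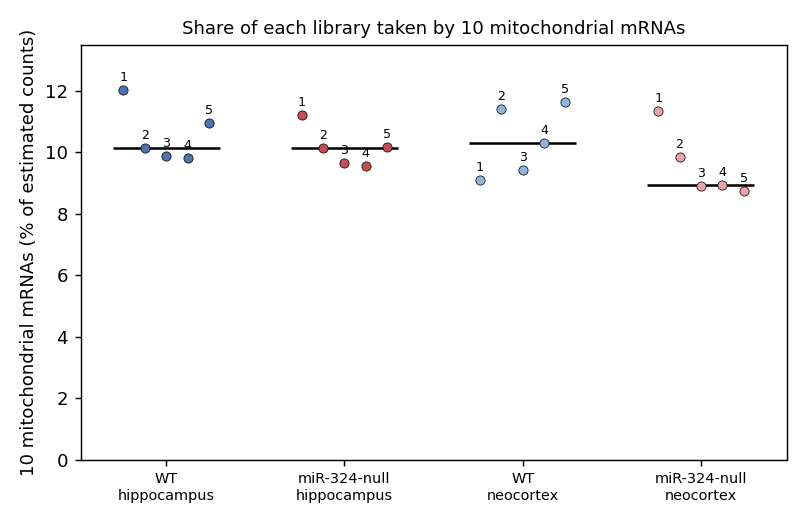
The y axis gives the summed estimated counts of the 10 mitochondrial mRNAs as a percentage of all estimated counts of the library, starting at 0. Each numbered point is 1 sample and each line a group median; the groups overlap, with null neocortex replicate 1 at 11.3% above the other 4 samples of its group.

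The first comparison asked whether loss of miR-324 altered these mRNAs in either tissue. None of the 10 was DE between null and WT by edgeR, in the hippocampus or in the neocortex, while the genes called DE made up 0.115% of 14796 tested in hippocampal and 0.315% of 14930 in neocortical samples. At an unadjusted p of 0.05 or less, 3 of the 10 passed in each tissue, mt-Nd5, mt-Nd6 and mt-Co1, all lower in null samples; over all genes 11.1% passed in the hippocampus and 12.2% in the neocortex. The DESeq2 Wald test called 1 of the 10, mt-Nd5, lower in both tissues (adjusted p = 0.0265 and 0.0337), beside 0.933% and 1.61% of all genes. The paper's own DESeq2 testing did not list mt-Nd5 among its genes DE in both tissues. Over the 10, the hippocampal log2 fold changes had a median of -0.047 and the neocortical ones of -0.11, beside medians of 0.0012 and 0.0046 over all genes tested. These medians moved with single libraries. The hippocampal one turned to 0.012 without WT sample 1 and fell to -0.086 without null sample 1. The neocortical one was -0.060 without WT sample 5 and -0.19 without null sample 1. The comparisons of the 2 tissues used different samples, but samples with the same number may come from the same mouse, which the labels do not state.

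The complex I mRNA mt-Nd5 showed the widest difference in the hippocampus. In CPM, WT hippocampus samples 1 to 5 had 6328, 5358, 4873, 5309 and 5960, and null samples 4806, 4010, 3690, 4765 and 4709. Every null sample lay below every WT sample, by a small margin between 4806 and 4873; of all genes tested, 1.18% had null samples wholly below WT samples. The log2 fold change was -0.34 ± 0.09 (SE; edgeR, adjusted p = 0.241). In the neocortex, WT samples had 4976, 6731, 5008, 5980 and 6539 and null samples 5363, 4499, 3213, 4620 and 3660. These groups overlapped through null sample 1. The log2 fold change there was -0.45 ± 0.13 (edgeR, adjusted p = 0.196), and the difference between the tissues in this fold change was 0.11 ± 0.17 (interaction, adjusted p = 0.979).

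mt-Nd6, which encodes another membrane subunit of complex I, had WT hippocampus values of 1596, 1349, 1238, 1339 and 1442 CPM. Null hippocampus samples had 1249, 1207, 825, 1178 and 1087. The groups overlapped only through WT sample 3 and null sample 1, and null sample 3 was the lowest. The log2 fold change was -0.33 ± 0.11 (edgeR, adjusted p = 0.321). In the neocortex, WT samples had 1282, 1699, 1401, 1570 and 1581 and null samples 1335, 1072, 730, 1174 and 925, again with null sample 3 lowest and null sample 1 within the WT range. Here the log2 fold change was -0.52 ± 0.13 (edgeR, adjusted p = 0.152), the widest of the 10 in the neocortex. A difference in the tailing of mt-Nd6, and so in its capture, cannot be told apart from a difference in its level.

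mt-Co1, the catalytic subunit of cytochrome c oxidase, followed with smaller differences. It had 29230 ± 3138 CPM in WT and 25970 ± 1130 in null hippocampus (SD, n = 5), and 30030 ± 3233 in WT and 25680 ± 2524 in null neocortex. The log2 fold changes were -0.17 ± 0.07 (edgeR, adjusted p = 0.375) and -0.22 ± 0.08 (adjusted p = 0.310). Its copy Gm29216 had -0.15 ± 0.08 (adjusted p = 0.517) and -0.29 ± 0.08 (adjusted p = 0.172), so the values of both were lower in null samples, without passing the test.

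The other complex I mRNAs had fold changes of the opposite sign or near 0. mt-Nd1 had 8253 ± 827 CPM in WT and 9128 ± 610 in null hippocampus (log2 fold change 0.15 ± 0.07, edgeR adjusted p = 0.466), and 8217 ± 1136 against 8409 ± 1195 in the neocortex (0.04 ± 0.10, adjusted p = 0.922). For mt-Nd2 the log2 fold change was 0.08 ± 0.08 (hippocampus) and -0.04 ± 0.11 (neocortex), and for mt-Nd4 it was -0.08 ± 0.07 and -0.11 ± 0.10. For mt-Cytb of complex III the values were -0.12 ± 0.07 and -0.19 ± 0.09. For mt-Co2 they were -0.01 ± 0.07 and -0.11 ± 0.09, for mt-Co3 0.0031 ± 0.08 and -0.10 ± 0.12, and for mt-Atp6 0.0061 ± 0.07 and -0.05 ± 0.09. None of these 7 passed even the unadjusted threshold.

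**Figure D3:**
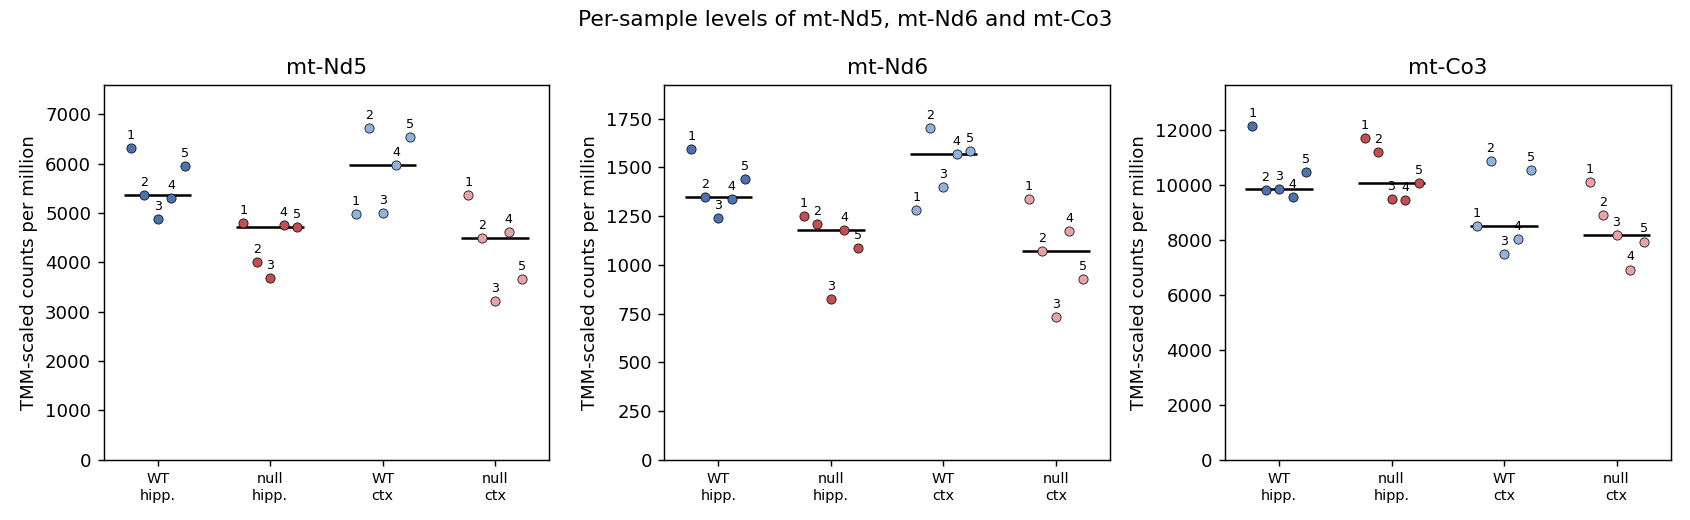
The y axes give CPM, starting at 0, for mt-Nd5, mt-Nd6 and mt-Co3. Each numbered point is 1 sample and each line a group median; null samples lie lower for mt-Nd5 and mt-Nd6, with null replicate 3 lowest in both tissues, and neocortex samples lie lower for mt-Co3.

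The level of all 10 rose and fell together from sample to sample. The share of each mRNA in the summed counts of the 10 takes this common movement out. On this scale the coefficient of variation within a group was lower than on CPM for all 10 in all 4 groups, with a median over the 10 of 1.81% against 10.1% in WT hippocampus, 3.71% against 7.85% in null hippocampus, 2.72% against 13.2% in WT neocortex and 3.23% against 12.8% in null neocortex. For mt-Nd5 and mt-Nd6 in null hippocampus the spread narrowed little, from 11.65% to 10.9% and from 15.3% to 13.3%. Several mRNAs separated by genotype. A share that rises forces others to fall, so the 10 shares are not independent, and they were compared as descriptions.

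mt-Nd1 separated most clearly. It made up 7.70%, 7.77%, 7.66%, 7.71% and 7.79% of the sum in WT hippocampus and 9.04%, 8.98%, 9.42%, 8.80% and 8.60% in null hippocampus. In WT neocortex it made up 7.91%, 7.87%, 7.47%, 7.77% and 7.85%, and in null neocortex 9.18%, 8.74%, 9.03%, 8.43% and 8.82%. All 10 null samples lay above all 10 WT samples, with 7.91% the highest WT and 8.43% the lowest null value. Samples with the same number may come from the same mouse, so these 10 may not be 10 separate mice. mt-Nd1 was also 1 of the 3 listed mRNAs that share no word with any copy.

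mt-Nd5 went the other way. Its share was 4.93% to 5.45% in WT and 3.83% to 4.96% in null hippocampus, which overlapped by a narrow margin, and 5.36% to 5.78% in WT and 3.71% to 5.21% in null neocortex, which did not overlap. mt-Nd6 made up 1.25% to 1.36% of the sum in WT and 0.856% to 1.23% in null hippocampus, without overlap, and 1.32% to 1.52% against 0.843% to 1.33% in the neocortex, with the highest null sample just inside the WT range. Null samples were more scattered than WT samples on this scale for all 10 mRNAs in the hippocampus and for 8 of 10 in the neocortex, all but mt-Co3 and mt-Nd2. These shares depend on each other. On CPM the median coefficient of variation over the 10 was not wider in null samples, at 7.85% against 10.1% in WT hippocampus and 12.8% against 13.2% in WT neocortex. For mt-Nd5 and mt-Nd6 it was wider in null samples on CPM too. The coefficient of variation of the mt-Nd5 share was 4.09% in WT and 10.9% in null hippocampus, and 3.39% and 12.8% in the neocortex. For mt-Nd6 it was 3.05% and 13.3%, and 5.95% and 16.1%. Without null sample 3 the null values were 9.90% and 9.41% for mt-Nd5, and 6.39% and 10.4% for mt-Nd6. In both tissues null sample 3 had the lowest and null sample 4 the highest share of both genes.

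Counted over the 10 on the scale of the sum, 2 were wholly higher in null hippocampus, mt-Nd1 and mt-Nd2, and 2 wholly lower, mt-Nd6 and mt-Cytb. Over all genes tested, divided by the same sum, 1.17% were wholly higher and 0.23% wholly lower. In the neocortex 3 were wholly higher, mt-Nd1, mt-Co2 and mt-Atp6, and 1 wholly lower, mt-Nd5, beside 1.28% and 0.067% of all genes. Nuclear genes carry the sample-to-sample movement of the sum on this scale while the 10 do not, so these background shares are not a like-for-like measure. On CPM, 1 of the 10 was wholly lower in null hippocampus (mt-Nd5) and none was wholly higher, and in the neocortex all 10 overlapped; the shares over all genes were 1.37% higher and 1.18% lower in the hippocampus and 1.01% and 1.29% in the neocortex.

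Which mRNAs separated depended in part on the copies. With the counts of the copies added to their mitochondrial genes, mt-Atp6 joined those wholly higher in null hippocampus, and mt-Co1 took the place of mt-Cytb among those wholly lower. With TPM in place of counts, mt-Nd2 no longer separated in the hippocampus, nor mt-Co2 in the neocortex. mt-Nd1 remained wholly higher in null samples of both tissues under each of these 3 alternatives, which also include a sum over all 13 mitochondrial mRNAs, mt-Nd6 remained wholly lower in the hippocampus and mt-Nd5 in the neocortex.

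**Figure D4:**
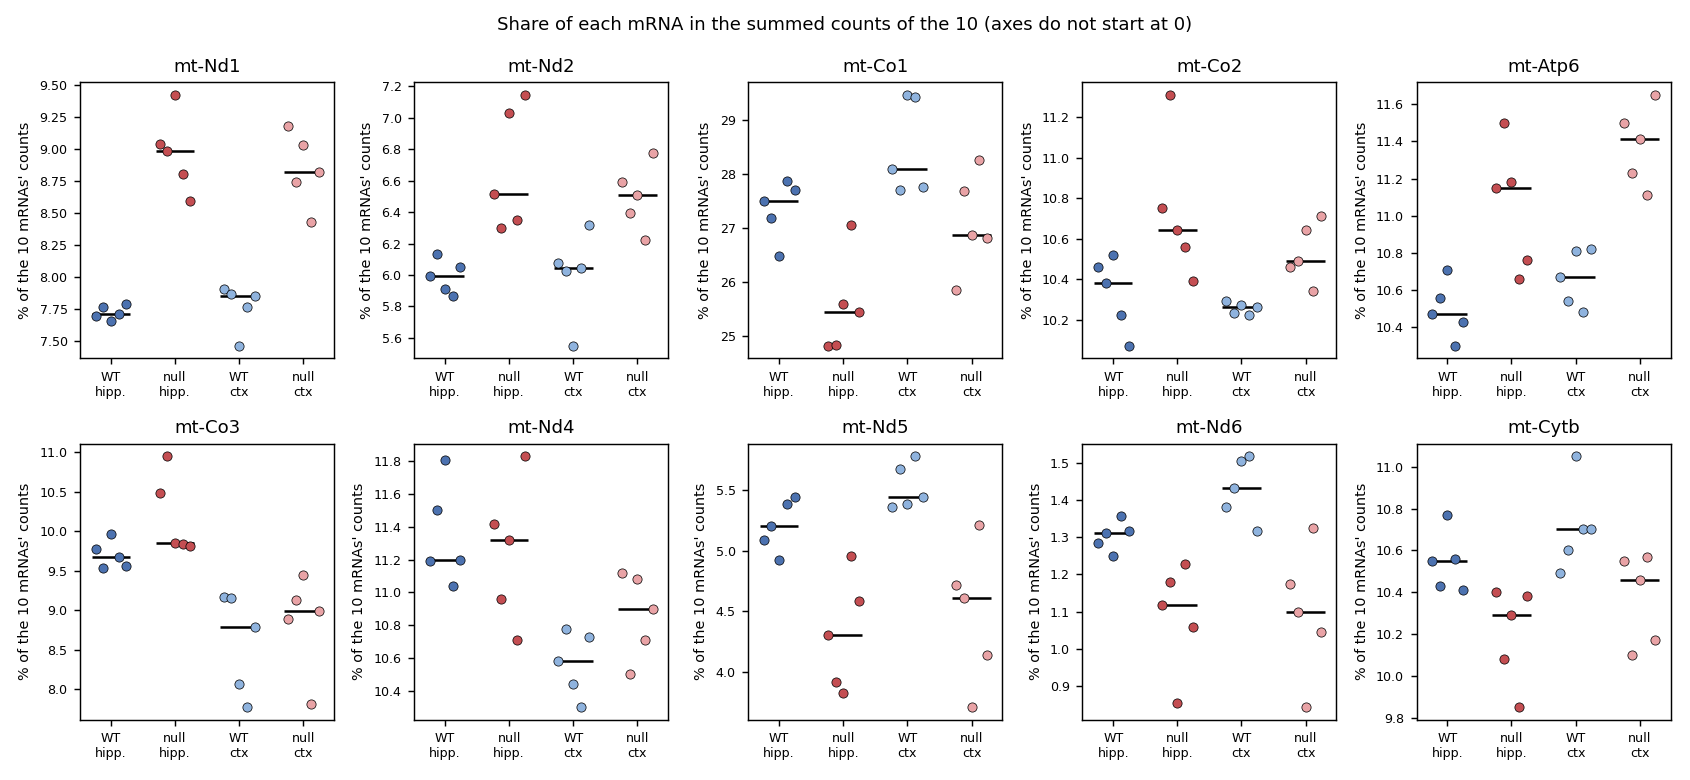
Each panel gives 1 mRNA, in the order of the genes along the chromosome, with its percentage of the summed estimated counts of the 10 on a y axis that does not start at 0. Each point is 1 sample and each line a group median (hipp., hippocampus; ctx, neocortex); for mt-Nd1 all null points lie above all WT points in both tissues.

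A fit across all genes with the sum of the 13 mitochondrial mRNAs as library size puts a test on the same scale. This setting was chosen after the values had been seen. None of the 10 was DE between genotypes in it. The smallest adjusted p in the hippocampus belonged to mt-Nd1, at a log2 fold change of 0.21 ± 0.05 (edgeR, adjusted p = 0.268), followed by mt-Nd5 at -0.27 ± 0.07 (adjusted p = 0.476). In the neocortex mt-Nd5 had -0.30 ± 0.09 (adjusted p = 0.0789), mt-Nd6 -0.38 ± 0.11 (adjusted p = 0.0873) and mt-Nd1 0.18 ± 0.07 (adjusted p = 0.254). Of all genes, this fit called 0.0676% in hippocampal and 1.11% in neocortical samples. At an unadjusted p of 0.05 or less, 5 of the 10 passed in the hippocampus, beside 7.08% of all genes, and 3 in the neocortex, beside 10.9%. This library size shifted the median log2 fold change of all genes, to 0.06 for the hippocampal and 0.15 for the neocortical comparison, and the changes on this scale are relative to that shift.

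Along the chromosome, the fold changes relative to the sum ran from positive values at mt-Nd1 and mt-Nd2, over values within 0.1 of 0 for the listed mRNAs from mt-Co1 to mt-Nd4, to negative values at the neighbours mt-Nd5 and mt-Nd6, and back near 0 at mt-Cytb (-0.05 ± 0.05 in both tissues). In the order hippocampus, neocortex, the 3 unlisted mRNAs had 0.08 ± 0.09 and 0.08 ± 0.13 for mt-Atp8, 0.23 ± 0.09 and 0.14 ± 0.12 for mt-Nd3, and -0.07 ± 0.08 and 0.03 ± 0.10 for mt-Nd4l. None of the 3 was DE, and mt-Nd3 alone passed the unadjusted threshold, in the hippocampus. mt-Nd5 and mt-Co1 were the longest of the 10 transcripts, and mt-Nd6 with 519 bases was the shortest. A relation of the fold changes to transcript length was not tested.

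**Figure D5:**
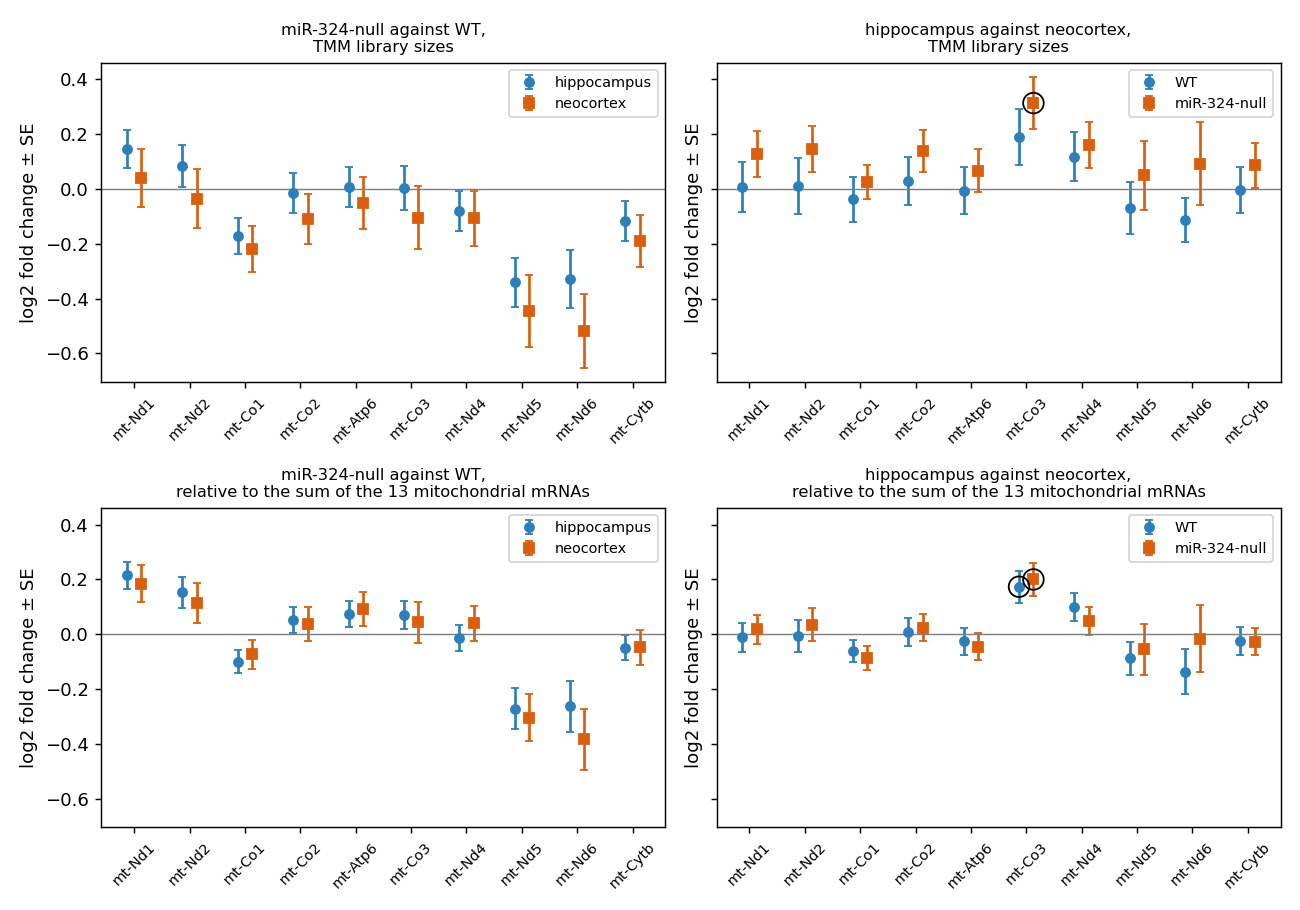
Each point is the log2 fold change of 1 mRNA with its SE as a bar, in the order of the genes along the chromosome, and open circles mark an adjusted p of 0.05 or less by edgeR. The upper panels use TMM library sizes and the lower panels the sum of the 13 mitochondrial mRNAs; left, null against WT, where no point is circled and mt-Nd5 and mt-Nd6 are lowest, and right, hippocampus against neocortex, where mt-Co3 is circled.

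The second comparison asked how the mRNAs differed between the tissues. Most differed less between hippocampus and neocortex than between samples of one tissue, although the tissues differed in many other genes. None of the 10 was DE between tissues in WT mice, where 36.1% of 14894 genes were DE, with no member reaching even an unadjusted p of 0.05 by edgeR or DESeq2. In null mice 1 of the 10, mt-Co3, was higher in the hippocampus, while 13.8% of 15033 genes were higher and 27.4% differed in either direction.

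mt-Co3, a core subunit of cytochrome c oxidase, had 11720, 11200, 9495, 9451 and 10070 CPM in null hippocampus and 10100, 8901, 8186, 6924 and 7943 in null neocortex. The groups overlapped through neocortex sample 1. The log2 fold change was 0.31 ± 0.09 (edgeR, adjusted p = 0.0255), or 1.24-fold. In WT mice mt-Co3 had 12140, 9812, 9864, 9547 and 10460 in the hippocampus and 8502, 10860, 7501, 8035 and 10560 in the neocortex, with a log2 fold change of 0.19 ± 0.10 (adjusted p = 0.174). Neocortex samples 2 and 5 lay among the hippocampal values. The 2 fold changes differed by 0.12 ± 0.15 (interaction, adjusted p = 0.974), so no difference between the genotypes in this tissue effect was detected. The call in null mice was lost on leaving out any 1 of 5 samples, hippocampus samples 1 and 2 and neocortex samples 3, 4 and 5, and with limma on log2 TPM (0.24, adjusted p = 0.0746). The fold changes without those samples stayed between 0.25 and 0.30 (edgeR, adjusted p from 0.0560 to 0.0625). Without neocortex sample 1, 5 of the 10 were higher in the hippocampus: mt-Co2, mt-Co3, mt-Nd1, mt-Nd2 and mt-Nd4. With all samples and the replicate number as a block, mt-Co3 was called as well (edgeR, adjusted p = 0.0025). The labels do not tie that number to a mouse.

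As a share of the sum, mt-Co3 made up 9.53% to 9.97% in WT hippocampus against 7.77% to 9.16% in WT neocortex, and 9.81% to 10.95% against 7.81% to 9.45% in null mice. Neither pair overlapped. Over all genes, 5.45% were wholly higher and 8.14% wholly lower in the hippocampus on this scale in WT, and 4.46% and 7.84% in null mice. On CPM all 10 overlapped between the tissues in both genotypes, whereas 13.1% of genes were wholly higher and 13.3% wholly lower in WT hippocampus and 10.1% and 11.0% in null hippocampus. In the fit relative to the mitochondrial sum, mt-Co3 was higher in the hippocampus in WT (0.17 ± 0.06, edgeR adjusted p = 0.0353) and in null mice (0.20 ± 0.06, adjusted p = 0.0298), the only one of the 10 called in either; 19.1% and 19.2% of all genes were called there. mt-Nd4 also separated in WT mice, at 11.04% to 11.8% of the sum in the hippocampus against 10.3% to 10.8% in the neocortex, but not in null mice. With the copies added, mt-Co1 was wholly lower in WT hippocampus as well, and with TPM mt-Atp6 was wholly lower in null hippocampus. mt-Nd3, the next mRNA after mt-Co3 on the chromosome, was higher in the hippocampus in WT (0.33 ± 0.12, edgeR adjusted p = 0.0421) and null mice (0.50 ± 0.13, adjusted p = 0.0103) on TMM library sizes. Cell type markers were read beside the genes called between tissues, 18.1% higher and 18.0% lower in WT and 13.8% and 13.6% in null hippocampus. Of 6 neuronal markers, 5 were lower in WT and 4 in null hippocampus. Of 6 astrocyte markers, 4 were higher in WT and 1 in null hippocampus, and 1 was lower in each. Of 6 choroid plexus markers, 2 were higher in WT and 1 in null hippocampus. A single marker of 6 is near the shares over all genes. Summed neuronal levels were 4649 to 5170 CPM in null hippocampus against 5507 to 6842 in null neocortex. Of 6 striatal projection neuron markers, 3 were lower in WT and 6 in null hippocampus. Their summed levels were 60.7 to 78.8 CPM in null hippocampus against 206 to 509 in null neocortex. Of 5 meningeal fibroblast markers, 2 were higher in the hippocampus in each genotype, and of 6 microglial markers 1 was higher in WT. The part of all these markers in the mt-Co3 result was not tested.

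The other 9 had tissue differences of either sign in WT mice, from -0.11 ± 0.08 for mt-Nd6 to 0.12 ± 0.09 for mt-Nd4, and of 1 sign in null mice, from 0.03 ± 0.06 for mt-Co1 to 0.16 ± 0.08 for mt-Nd4. The median over the 10 was 0.0016 in WT and 0.11 in null mice, beside -0.00077 and 0.0081 over all genes. With 1 sample left out it lay between -0.058 (without hippocampus sample 1) and 0.056 (without neocortex sample 5) in WT, and between 0.067 (without hippocampus sample 1) and 0.20 (without neocortex sample 1) in null mice. The interaction of genotype and tissue was not significant for any of the 10 by edgeR (adjusted p from 0.962 to 0.994), none reached an unadjusted p of 0.05, and DESeq2 called none; 0.0195% of 15391 genes were called.

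The nuclear genes that act with these mRNAs were read from 9 lists, in which 117 genes were tested. Between genotypes none of the 117 was DE by edgeR in either tissue, and 9 in the hippocampus and 2 in the neocortex had an unadjusted p of 0.05 or less; DESeq2 called none of them. The nuclear subunits of complex I, the complex that holds mt-Nd5 and mt-Nd6, had median log2 fold changes of 0.05 (hippocampus) and 0.02 (neocortex) over 37 genes. The nuclear subunits of complex IV had 0.01 and -0.05 over 10 genes, and those of ATP synthase 0.04 and 0.02 over 16 genes. The genes of mitochondrial RNA processing and stability had 0.03 and 0.02 over 18 genes, and those of mitochondrial transcription 0.01 and 0.02 over 10.

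Between tissues the nuclear subunits were higher in the hippocampus more often than lower. In WT mice 25 of the 76 subunits of the 5 complexes were higher and 2 lower, and in null mice 16 were higher and none lower. Over all genes 18.1% were higher and 18.0% lower in WT, and 13.8% and 13.6% in null mice. Complex I accounted for 13 higher and 2 lower of 37 in WT and 10 higher in null mice. Ndufs5, an accessory subunit, had 57.3 ± 2.15 CPM in WT hippocampus against 48.0 ± 1.01 in WT neocortex (0.25 ± 0.04, edgeR adjusted p = 0.000321), and Ndufc1 followed (0.30 ± 0.06, adjusted p = 0.00135). In null mice Ndufa10 (0.25 ± 0.07, adjusted p = 0.0165) and Ndufa3 (0.31 ± 0.09, adjusted p = 0.0184) led. In ATP synthase, 8 of 16 subunits were higher in WT and 5 in null hippocampus, led in both by Atp5g1, a subunit of the membrane ring, with 141 ± 5.73 against 114 ± 4.38 CPM in WT (0.30 ± 0.04, adjusted p = 8.66e-05), and by Atp5e.

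Complex II, which has no mitochondrially encoded subunit, had 2 of 4 subunits higher in WT hippocampus (Sdhc, 0.19 ± 0.06, and Sdhd, 0.16 ± 0.05) and 1 in null hippocampus (Sdhd, 0.23 ± 0.06). Complex III had 2 of 9 higher in WT, Uqcr10 and Uqcr11 (both 0.24 ± 0.06), and none in null mice, with 3 at an unadjusted p of 0.05 or less and 1 called by DESeq2. In complex IV, where mt-Co3 was higher, none of the 10 nuclear subunits was DE between tissues in either genotype by edgeR, with 2 at an unadjusted p of 0.05 or less in each; DESeq2 called 1 in WT mice.

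Among the genes that make, process and maintain mitochondrial RNA and DNA, 6 of 41 were higher and 1 lower in WT hippocampus, and 3 higher and 2 lower in null hippocampus. Over all genes 18.1% were higher and 18.0% lower in WT, and 13.8% and 13.6% in null mice. These genes were thus called no more often than genes in general, and those named below are given as description. Lrpprc, which stabilises mitochondrial mRNAs, was higher in null hippocampus (0.21 ± 0.06, edgeR adjusted p = 0.0224). Hsd17b10, a part of the enzyme that cuts the 5′ ends of mitochondrial transfer RNAs, was higher in WT (0.23 ± 0.06, adjusted p = 0.0113) and null hippocampus (0.21 ± 0.07, adjusted p = 0.0385), and Fastkd1 in WT (0.30 ± 0.07, adjusted p = 0.00502). Top1mt, the mitochondrial topoisomerase, was higher in both (0.50 ± 0.10, adjusted p = 0.00195, and 0.64 ± 0.15, adjusted p = 0.00848). Twnk, the replicative helicase of mitochondrial DNA, was higher in WT (0.26 ± 0.09, adjusted p = 0.0299), and Polg, its polymerase, was lower in null hippocampus (-0.19 ± 0.06, adjusted p = 0.0305). None of the 10 genes of mitochondrial transcription was DE in either genotype, with 1 at an unadjusted p of 0.05 or less in each and none by DESeq2. Of the regulators of mitochondrial biogenesis, Ppargc1a was lower (-0.29 ± 0.08, adjusted p = 0.00996) and Gabpa higher (0.20 ± 0.06, adjusted p = 0.0223) in WT hippocampus, and Esrra lower in null hippocampus (-0.25 ± 0.08, adjusted p = 0.0301).

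Within groups, the 10 mRNAs moved together. The deviations of log2 CPM from the group mean were compared with the mean deviation of the 10 over the 20 samples, a mean to which each of the 10 contributes. Pearson's r was between 0.92 and 0.97 for mt-Cytb, mt-Co2, mt-Atp6, mt-Nd4, mt-Nd1, mt-Co1 and mt-Nd2, 0.876 for mt-Co3, 0.852 for mt-Nd5 and 0.772 for mt-Nd6, which followed the others least. Among the unlisted mRNAs r was 0.876 for mt-Nd4l, 0.764 for mt-Nd3 and 0.664 for mt-Atp8, which had only 29.9 to 48.4 CPM. The mt-Atp8 transcript has 204 bases, barely more than the 199 bases by which effective lengths fell short, so its level is poorly determined. Of 15371 genes outside the mitochondrial chromosome and its copies, the 5 with the highest r were Cxcl14 (0.799), Micu2 (0.797), Zfp36l2 (0.778), Garem2 (0.773) and Serpine2 (0.765). Micu2 encodes a regulator of the mitochondrial calcium uniporter, Cxcl14 a chemokine, Zfp36l2 an RNA-binding protein and Serpine2 a protease inhibitor. These are the highest of many values over 20 samples that share library, depth and scaling, and they are given as a description.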

How the data were processed

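RNA-seq of hippocampus and neocortex was analysed in 20 samples, 5 of each genotype and tissue, grouped by the submitters' labels. The replicates were taken as separate mice of one genotype, which the labels do not state, and p values measure only the spread between these samples. The authors made mRNA libraries with a strand-keeping kit, ran kallisto against the mouse transcriptome and deposited, for each transcript, estimated counts. The deposited TPM values were computed by the authors' kallisto run from those counts and the effective transcript lengths, which were 199 bases below the transcript length in every sample. The labels' build field names a human build, but all identifiers were mouse identifiers of GRCm38. The kallisto version and the use of strand were not given in the sources used here. The paper's own testing used DESeq2 after a summary to genes.

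Of 115270 transcripts, 113580 were matched by identifier to GENCODE M21, and at most 0.556% of a sample's counts lay outside them. Estimated counts were summed over genes, rounded to whole numbers, filtered with edgeR's filterByExpr and tested with its quasi-likelihood test (edgeR 4.0.16, R 4.3.3) on TMM library sizes, with only the 10 samples of each comparison in the fit and Benjamini-Hochberg adjustment over all genes tested. A gene was called DE at an adjusted p of 0.05 or less. SEs were derived from the fold change and the F statistic. With library totals of 12752439 to 19617765 counts, the lowest count of a listed mRNA in a sample was 12290, a counting error of 0.902%. For weakly expressed nuclear genes such as Twnk and Fastkd1, and for copies with few counts, counting error can be as large as the spread between samples. Copies were found with BLAST 2.17.0 (95% identity, 100 bases). Log2 CPM used a prior count of 2, and log2 TPM a pseudocount of 1. Scripts were tested on simulated data.

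The listed genes and all gene lists were chosen with earlier results of these data known. Named genes were the 10 listed mRNAs, the other mitochondrial mRNAs, the copies, the 2 called genes of smallest p in each pathway list and comparison, and the 5 genes most correlated with the mean of the 10. Alternatives were DESeq2 size factors, total counts, libraries without mitochondrial genes, the mitochondrial sum as library size (added after seeing the data, as were all alternatives for the shares within the sum), no filter on low counts, a transcript length offset, copies added, all samples in 1 fit, DESeq2 1.42.0, limma 3.58.1 on log2 TPM, a replicate block and each sample left out. Ribosomal and transfer RNAs of the mitochondrion were not analysed here.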

Additional observations from a re-analysis of the deposited data

Results flagged for a closer look

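Of 100 sets of 5 values (4 groups, each with the library share, the level and share of each of the 10 mRNAs and the levels of Gm29216, Gm28661, Gm10925 and Gm13394), 5 held a sample set apart from the other 4, its gap to the nearest being over 0.71 of the whole range. Chance alone flags about 1 set in 20. In null neocortex, replicate 1 stood above the others for mt-Nd4, at 12630 CPM against 9496 to 10240, and for mt-Cytb, at 11990 against 8990 to 9852. The same sample held the highest library share of its group. In null hippocampus, replicate 3 stood apart for Gm28661, a copy of mt-Co2 identical to it over the match, at 291 CPM against 2.30 to 6.32, and for Gm10925, a copy of mt-Atp6, at 108 against 0.522 to 1.35. In WT hippocampus, replicate 1 stood apart for Gm10925, at 2.67 against 0.0646 to 0.315, which is 40.8 counts against 0.6 to 4.3. Null hippocampus replicate 3 was also the sample with the lowest mt-Nd5 and mt-Nd6 levels of its group.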

How the results depend on the processing

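No member was called between genotypes under any alternative by edgeR or limma, samples left out included; the DESeq2 Wald test called 1 in the hippocampus and 1 in the neocortex, mt-Nd5 in each. Between tissues in WT mice, 1 was called relative to the mitochondrial sum (mt-Co3) and 0 otherwise. In null mice limma on log2 TPM called 0 and leaving out 1 sample called between 0 and 5. In percent of TPM, the median library share was 20.6% in WT and 20.3% in null hippocampus, 21.0% in WT and 19.0% in null neocortex. With a replicate block, 0 members were called between genotypes in the hippocampus and in the neocortex, 0 between tissues in WT, 1 in null mice (mt-Co3) and 0 in the interaction, so the block changed no call, and mt-Co3 in null mice had 0.32 with edgeR adjusted p = 0.00247. At an unadjusted p of 0.05 or less, the block moved the count from 3 to 5 in the hippocampus between genotypes and from 1 to 5 between tissues in null mice. Between genotypes a shared number cannot mark a mouse, and the labels give it no other meaning. That block therefore tells nothing about the genotype calls. The labels do not state that a number marks a mouse, so the numbers were not taken as pairs. Between the tissues, the correlation of deviations between same-numbered samples was -0.102 to 0.101 in WT and 0.0165 to 0.177 in null mice. The mean correlation of a sample with other numbers was -0.026 to 0.026 in WT and -0.047 to 0.0005 in null mice. The same number gave the higher value in every sample except WT sample 5. These values do not settle whether the samples are pairs. Hints from the data were mixed. Gm13394 stood on the same step in both tissues for every number. The highest CPM had the same number in both tissues for 9 of the 10 mRNAs in null and 0 in WT mice, and the lowest for 9 and 1; on the scale of the sum these were 4 and 2, and 4 and 3. Of the genes called over the whole table, the DESeq2 Wald test counted 138 against 17 in the hippocampus and 240 against 47 in the neocortex.

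The sign of log2 fold changes near 0 was not stable; none of these was called and the cause was not tested. Relative to the mitochondrial sum, null against WT turned to 0.053 for mt-Co2 in the hippocampus, and in the neocortex to 0.037 for mt-Co2, 0.043 for mt-Co3, 0.11 for mt-Nd2, 0.039 for mt-Nd4 and 0.093 for mt-Atp6. Hippocampus against neocortex turned in WT to -0.012 for mt-Nd1 and -0.0059 for mt-Nd2, and in null mice to -0.088 for mt-Co1, -0.055 for mt-Nd5, -0.016 for mt-Nd6, -0.027 for mt-Cytb and -0.046 for mt-Atp6. The interaction turned to -0.026 for mt-Co1, -0.052 for mt-Nd4, -0.0021 for mt-Cytb and -0.019 for mt-Atp6. With limma on log2 TPM, mt-Nd2 turned to 0.012 (null against WT, neocortex), mt-Nd1 to -0.0095 and mt-Nd2 to -0.0027 (tissues, WT), mt-Co1 to -0.048, mt-Nd5 to -0.012 and mt-Atp6 to -0.0059 (tissues, null) and mt-Nd4 to -0.015 (interaction). mt-Co3 in the hippocampus turned to -0.0012 without a filter and -0.0015 with a length offset. Between tissues in WT, mt-Cytb turned to 0.0063 and mt-Atp6 to 0.0048 with libraries counted outside the mitochondrial genes, to 0.0045 and 0.0030 with total counts, and mt-Cytb to 0.0011 with a length offset.

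With 1 sample left out, null against WT in the hippocampus ranged from -0.052 to 0.050 for mt-Co2, from -0.045 to 0.066 for mt-Co3 and from -0.034 to 0.065 for mt-Atp6, and in the neocortex from -0.054 to 0.089 for mt-Nd1 and from -0.12 to 0.030 for mt-Nd2. Between tissues in WT it ranged from -0.10 to 0.0073 for mt-Co1, from -0.036 to 0.080 for mt-Co2, from -0.051 to 0.061 for mt-Nd1, from -0.049 to 0.082 for mt-Nd2, from -0.064 to 0.046 for mt-Cytb and from -0.065 to 0.051 for mt-Atp6. In null mice it ranged from -0.0082 to 0.078 for mt-Co1, from -0.036 to 0.15 for mt-Nd5 and from -0.013 to 0.20 for mt-Nd6, and in the interaction from -0.025 to 0.11 for mt-Nd4. For the levels of the 10 mRNAs counting error was small beside the spread between the 5 samples of a group.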
